A study of Mus musculus with 16 samples.

Results

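Klf2, Klf3, Klf4, Klf6, Klf7 and Klf9 encode Kruppel-like transcription factors, and their transcripts were compared between the retina of adult mice and the cortex of newborn mice. Every probe set whose platform annotation gave exactly 1 gene symbol, and that symbol one of the 6, was taken, which made 9 probe sets of the 12422 that were tested, and 6 of the 8251 genes with such a probe set. Klf3, Klf4 and Klf9 had 2 probe sets each, and the other genes had 1. The rule for the probe sets uses names alone, but the members of the family were chosen with earlier results of these data known. A probe set is the group of short oligonucleotides that reads 1 transcript, and its brightness depends on its own oligonucleotides. Levels of single genes are therefore compared below within a probe set. Summed marker intensities add several probe sets and depend most on the brightest.

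The series asked how far expression values vary between repeated arrays and between laboratories, using aliquots of a pair of RNA pools on 16 1-colour arrays. Site 2 ran 3 arrays of adult retina and 3 of postnatal day 1 cortex, and the first site ran 5 of each. The retina pool came from 350 C57/B6 adults, and the cortex pool from 19 mice that the sample descriptions call C57/B6 and the design text calls Swiss-Webster; these pool sizes stand in the descriptions of the first-site samples. No allele, transgene or treatment is named for any group. Tissue, age and possibly strain therefore differ together between retina and cortex and cannot be told apart. Since all arrays of a group share 1 pool, the errors and p-values below measure technical spread and no spread between animals. In such bulk RNA, fewer cells of a type and less RNA per cell cannot be told apart either.

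Kruppel-like factors are transcription factors that bind GC-rich and CACCC-type DNA elements through zinc fingers at the C-terminal end of the protein. Members of the family can activate or repress, depending on the cofactors they recruit. In cultured neurons, including retinal ganglion cells, Klf6 and Klf7 are known to favour neurite growth, whereas Klf4 and Klf9 are known to hold it back. Klf9 is also a known target of thyroid hormone and glucocorticoids, and Klf2 is best known from endothelial cells and lymphocytes.

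The 3 genes with the largest tissue differences, Klf6, Klf7 and Klf9, are shown with the 250 bases before their start sites, since Klf6 and Klf7 were lower and Klf9 was higher in retina. The sequences are from RefSeq (GRCm38.p6), 5′ to 3′ on the strand of the gene, at chr13:5861239-5861488 (+) for Klf6, chr1:64121390-64121639 (-) for Klf7 and chr19:23140976-23141225 (+) for Klf9. Capitals mark the element CACCC, which reads GGGTG when it lies on the other strand. They also mark the GC box, which reads GGGCGG here or, from the other strand, CCGCCC, and the CCAAT box, which from there reads ATTGG. Both strands were searched, and neighbouring or overlapping matches run together.
Klf6: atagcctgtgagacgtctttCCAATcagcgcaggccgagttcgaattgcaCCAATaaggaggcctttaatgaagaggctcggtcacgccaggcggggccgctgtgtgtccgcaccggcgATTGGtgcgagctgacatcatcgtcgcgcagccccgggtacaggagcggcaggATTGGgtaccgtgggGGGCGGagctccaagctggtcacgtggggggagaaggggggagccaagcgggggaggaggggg
Klf7: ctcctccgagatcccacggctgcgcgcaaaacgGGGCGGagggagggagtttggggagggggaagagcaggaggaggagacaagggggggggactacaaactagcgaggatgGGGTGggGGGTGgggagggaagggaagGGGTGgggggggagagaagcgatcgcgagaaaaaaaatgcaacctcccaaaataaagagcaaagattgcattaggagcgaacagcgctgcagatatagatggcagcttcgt
Klf9: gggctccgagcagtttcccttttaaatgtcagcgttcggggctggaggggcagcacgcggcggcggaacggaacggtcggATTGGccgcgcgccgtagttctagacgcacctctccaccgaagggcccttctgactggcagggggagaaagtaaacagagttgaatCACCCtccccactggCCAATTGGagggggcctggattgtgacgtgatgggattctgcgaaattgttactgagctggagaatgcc

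The Klf6 window held 4 CCAAT boxes, 1 GC box and no CACCC element. The Klf7 window held 3 CACCC elements and 1 GC box and no CCAAT box. The Klf9 window held 3 CCAAT boxes, 1 CACCC element and no GC box, and 2 of its CCAAT boxes overlap in the stretch CCAATTGG. All 6 genes matched a window in the RefSeq table. Klf3 had 5 CACCC elements and 6 GC boxes, Klf4 had 4 GC boxes, and Klf2 had 1 CACCC element and 2 GC boxes, each without a CCAAT box. Among 32851 windows of the same length, 52.0% held a CACCC element, 32.7% a GC box and 33.8% a CCAAT box. The GC content of the 6 windows ran from 59.2% (Klf7) to 78.4% (Klf3), beside a median of 52.4% over all windows. These matches describe the letters of the windows, and no binding was measured.

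The deposited intensities had array medians from 45.7 to 216, the lowest being replicate 2 of the site 2 cortex, so each array was rescaled to a median of 100 for the levels given here. The background level of each array was the highest of 13 control probe sets, taken by their names to have no added target. It lay between 12.6 and 37.0 on that scale. Rod photoreceptor markers were higher in retina for 10 of 10 measured genes at both sites, and newborn cortical neuron markers were lower in retina for 7 of 7. Differences were tested with limma on log2(intensity + 16) after centring each array on its median, a scale that understates the change of dim probe sets. Calls have a Benjamini-Hochberg adjusted p under 0.05 over all 12422 probe sets.

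At the first site, 7 of the 9 probe sets were called between retina and cortex, where 47.1% of all probe sets were. Klf9 was higher in retina by both of its probe sets, and Klf3 (both probe sets), Klf4 (99622_at), Klf6 and Klf7 were lower. Across all probe sets 21.9% were called higher in retina and 25.2% lower. For 6 of the 9, every array of one tissue lay above every array of the other, and 38.8% of all probe sets behaved so. The median log2 difference of the 9 was -0.48, beside -0.05 over all probe sets. At site 2, 6 of the 9 were called, 2 higher and 4 lower, against 32.5% of all probe sets called, 16.7% higher and 15.9% lower. Here too 6 of the 9 had no overlap between tissues, against 47.5% of all, and the median was -0.69 beside -0.02. Without centring the arrays, 6.29% of all probe sets were called at site 2 and 2 of the 9, Klf7 and Klf9 93527_at. Leaving it out moved every site 2 difference by the same -0.058. The lost calls were then at -1.53 for Klf6, -1.52 for Klf3 100011_at, -0.75 for Klf4 99622_at and 0.74 for Klf9 93528_s_at.

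**Figure D1:**
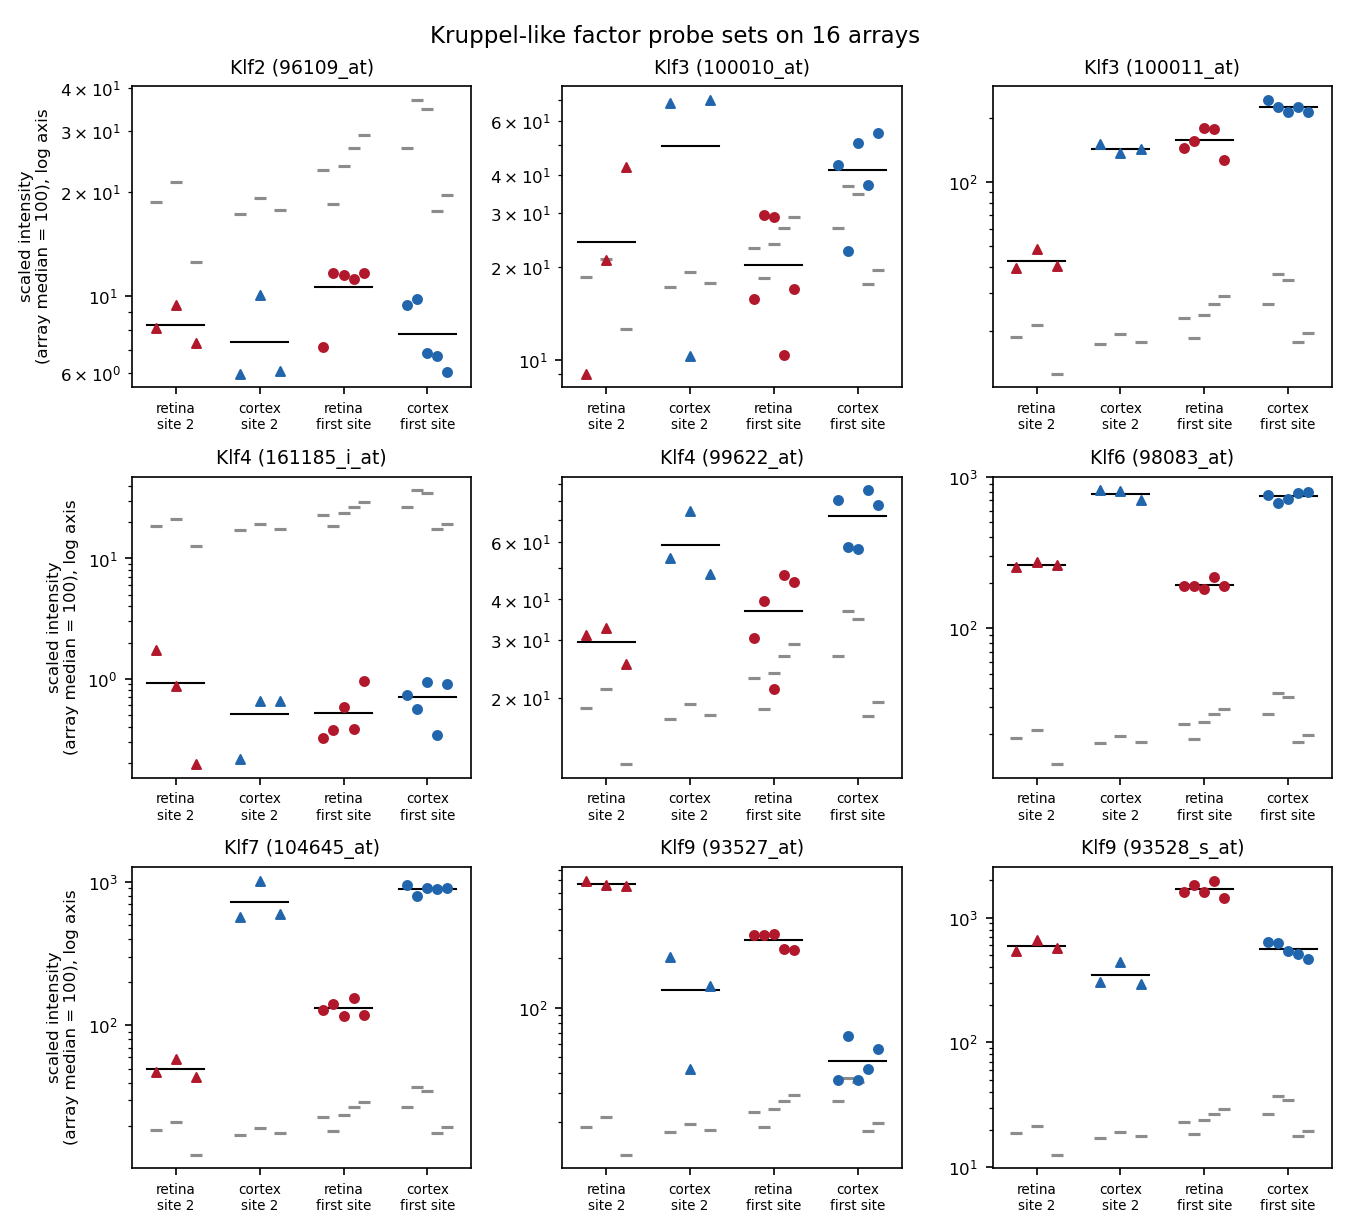
Scaled intensity (array median set to 100, log axis) of each Kruppel-like factor probe set on the 16 arrays. Triangles are site 2 and circles the first site, red is retina and blue is cortex, black lines are group means and grey dashes mark each array's background level. The Klf7 retina arrays lie between 44.0 and 156 and the cortex arrays between 572 and 1019, and all Klf2 arrays lie below their background dashes.

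Klf7, a factor needed for axon outgrowth in parts of the mouse nervous system, showed the largest difference of the set. At site 2 its scaled intensity was 47.3, 58.5 and 44.0 in retina, against 572, 1019 and 596 in cortex. On the first-site arrays it was 129, 141, 117, 156 and 118 in retina, against 946, 801, 911, 888 and 904 in cortex. Every retina array was below every cortex array at both sites. The retina mean was 0.149 of the cortex mean at the first site (132 ± 17 against 890.0 ± 54.2, SD, n = 5 each) and 0.0685 of it at site 2 (49.95 ± 7.62 against 729 ± 252, SD, n = 3 each). The log2 difference was -2.62 ± 0.088 (SE, limma adjusted p = 4.1e-13), the 248th largest of all probe sets in size, and -3.45 ± 0.19 at site 2 (adjusted p = 6e-07), the 126th. Without replicate 2 of the site 2 cortex, whose value was the highest of all, the site 2 difference was -3.27.

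Klf6, a widely expressed factor linked like Klf7 to neurite growth, was also lower in retina. Site 2 retina arrays read 254, 274 and 262, against 818, 805 and 703 in cortex. First-site retina arrays read 189, 191, 182, 218 and 191, against 760.5, 675, 716, 783 and 790.4 in cortex. The tissues were separated by a wide gap, and replicates within each tissue lay close together, apart from retina replicate 4 of the first site at 218. The retina mean was 0.260 of the cortex mean at the first site (194 ± 14 against 745 ± 49) and 0.340 of it at site 2 (263 ± 10 against 775 ± 63). These are log2 differences of -1.86 ± 0.077 (limma adjusted p = 5.7e-12) and -1.48 ± 0.14 (adjusted p = 2.6e-05).

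Klf9 went the other way. Its probe set 93527_at had scaled intensities of 598, 561 and 557 in site 2 retina, against 205, 42.2 and 135 in site 2 cortex. In first-site retina it had 279, 279, 283, 228 and 225, against 35.8, 66.9, 36.0, 42.0 and 55.7 in first-site cortex. Retina arrays were above cortex arrays throughout, but the site 2 cortex arrays spread widely. Probe set 93528_s_at had 545, 657 and 569.7 in site 2 retina, against 304, 439.6 and 292 in site 2 cortex. First-site retina had 1595, 1816, 1594, 1978 and 1424 for it, against 639.5, 629, 536.5, 510.1 and 470.1 in first-site cortex. It too separated the tissues at each site.

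The log2 differences of 93527_at were 2.17 ± 0.15 at the first site (limma adjusted p = 2.3e-09) and 2.17 ± 0.36 at site 2 (adjusted p = 0.00098), with retina means 5.47 and 4.49 times the cortex means. Leaving out replicate 2 of the site 2 cortex gave 1.67 at site 2. Those of 93528_s_at were 1.58 ± 0.099 (adjusted p = 9.4e-10) and 0.80 ± 0.16 (adjusted p = 0.0029), with retina means 3.02 and 1.71 times the cortex means. The suffix s is the array maker's mark for a probe set that may match more than 1 transcript, so other transcripts may share its signal.

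Klf4, a factor of epithelial barriers and of reprogramming to pluripotency, was dim. With 99622_at, site 2 retina had 31.1, 32.6 and 25.5, against 53.6, 74.4 and 48.0 in site 2 cortex. First-site retina had 30.6, 39.5, 21.4, 47.5 and 45.2, against 80.3, 57.8, 57.0, 86.1 and 77.8 in first-site cortex. The tissues did not overlap, although 1 of the first-site retina arrays was at or under background. The log2 difference was -0.78 ± 0.18 at the first site (limma adjusted p = 0.0015) and -0.69 ± 0.23 at site 2 (adjusted p = 0.044). That site 2 call was lost when any 1 of the 3 retina arrays or replicate 1 of the cortex arrays was left out (adjusted p 0.077 to 0.14), with a pseudocount of 50 (0.14), with quantile normalization (0.059) or without centring (0.67). The other Klf4 probe set, 161185_i_at, was at or under background on all 16 arrays, and no fold is given for it.

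Klf3, which represses transcription through the corepressor CtBP, was lower in retina by its brighter probe set. With 100011_at, site 2 retina had 39.5, 48.3 and 40.2, against 150.5, 137 and 142 in site 2 cortex. First-site retina had 145, 156, 179, 178 and 127, against 244, 225, 212, 226 and 214 in first-site cortex. No retina array reached its own site's cortex arrays. The log2 difference was -0.48 ± 0.10 at the first site (limma adjusted p = 0.00071) and -1.46 ± 0.17 at site 2 (adjusted p = 1e-04). The first-site call was lost without centring (adjusted p = 0.094).

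The dimmer Klf3 probe set, 100010_at, was at or under background on 3 of 5 retina and 1 of 5 cortex arrays at the first site, and on 2 of 3 and 1 of 3 at site 2. Site 2 retina had 9.0, 21.1 and 42.5, against 68.8, 10.3 and 70.4 in site 2 cortex, and the tissues overlapped. First-site retina had 15.8, 29.6, 29.2, 10.4 and 17.0, against 43.0, 22.6, 50.7, 37.2 and 54.7 in first-site cortex, again with overlap. Its log2 difference was -0.72 ± 0.20 at the first site (limma adjusted p = 0.0067) and, not called, -0.83 ± 0.40 at site 2 (adjusted p = 0.15). Without replicate 2 of the site 2 cortex, the low value of that group, the difference at site 2 was -1.20 and called (adjusted p = 0.013).

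Klf2, the flow-responsive factor of endothelial cells, was at or under background on all 16 arrays, between 5.97 and 11.7. Its levels allow no comparison. Endothelial markers were measured in the same RNA, where 47.1% of all probe sets were called at the first site and 32.5% at site 2. Of 12 markers, 2 were higher in retina, 7 lower and 3 not called at the first site, and 2, 8 and 2 at site 2. Their summed scaled intensity was 1245 to 1423 in retina against 1983 to 2091 in cortex at site 2, and 1221 to 1417 against 1741 to 1966 at the first site.

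**Figure D2:**
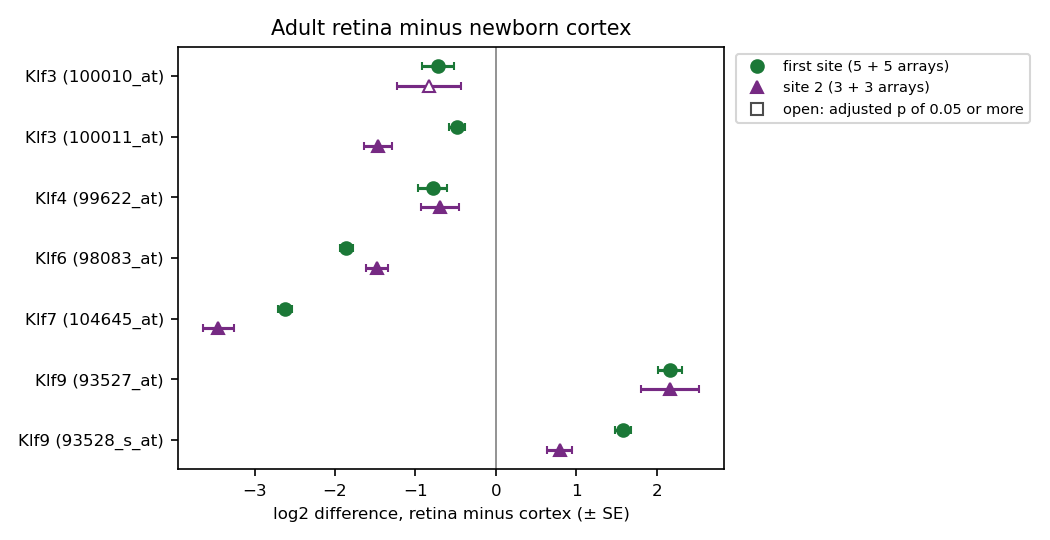
Log2 difference, retina minus cortex, with its standard error for the 7 probe sets above background on at least 1 array, circles for the first site and triangles for site 2. Filled symbols passed an adjusted p under 0.05. Klf9 lies to the right of 0 at both sites and Klf3, Klf4, Klf6 and Klf7 to the left, with only Klf3 100010_at at site 2 open.

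Markers of other cell types were counted in the same RNA, and their part in the differences above was not tested. Of all probe sets, 47.1% were called at the first site and 32.5% at site 2. Meningeal fibroblast and mural cell markers were higher in retina for 0 of 11 and lower for 8 at the first site, and 0 and 7 at site 2, with summed intensities of 1259 to 1276 in retina against 2707 to 4477 in cortex at site 2, and 1424 to 1804 against 3174 to 3344 at the first site. Microglia and macrophage markers were higher for 2 and lower for 7 of 15 at the first site and 1 and 2 at site 2, summing to 1694 to 1736 in retina against 1764 to 2059 in cortex at site 2 and 1574 to 1696 against 1657 to 1777 at the first site; Itgam and Ptprc were at or under background on all arrays. Mueller glia and astrocyte markers were higher for 5 and lower for 1 of 7 at the first site, and at site 2 3 were higher and 4 not called. Their sums were 7919 to 9006 in retina against 1264 to 2134 in cortex at site 2 and 9537 to 9903 against 1300 to 1468 at the first site. Retinal ganglion cell markers were higher for 6 of 6 and 5 of 6, neural progenitor markers lower for 5 and higher for 2 of 8 at each site, and erythroid markers lower for 3 and higher for 1 of 8 at each site. Pigment epithelium markers were higher for 4 and lower for 1 of 6 and lens markers higher for 4 of 7 at each site, which are tissues next to the retina.

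The tissue difference itself differed between sites for 3 of the 9 probe sets, all toward a lower retina value at site 2, where 3.36% of all probe sets were called. The interaction was -0.98 ± 0.18 for Klf3 100011_at (limma adjusted p = 0.0028), -0.82 ± 0.19 for Klf7 (adjusted p = 0.017) and -0.78 ± 0.18 for Klf9 93528_s_at (adjusted p = 0.016). By these probe sets the gap between tissues was wider at site 2 for Klf3 and Klf7 and narrower for Klf9. The other probe sets of these genes were not called, with interactions of -0.12 ± 0.43 for Klf3 100010_at and 0.0026 ± 0.37 for Klf9 93527_at. Without 1 array the Klf9 93527_at interaction ran from -0.49 to 0.39, lowest without replicate 2 of the site 2 cortex. Without replicate 3 of the site 2 retina the calls of Klf7 and of Klf9 93528_s_at were lost (adjusted p = 0.063 and 0.054), with differences of -0.76 and -0.75. Klf7 also missed the threshold with a pseudocount of 50 (0.092) and with quantile normalization (0.086). Without centring 0.274% of all probe sets and none of the 9 were called, with differences of -1.12 for Klf3 100011_at, -0.96 for Klf7 and -0.92 for Klf9 93528_s_at. Averaging the 2 probe sets of a gene ended the calls of Klf3 (adjusted p = 0.26) and Klf9 (0.28). For Klf6 the interaction was 0.38 ± 0.14 (adjusted p = 0.14). Over the 9 the median interaction was -0.03, beside 0.04 over all probe sets. That median is the value of Klf2, which was at or under background on all arrays. Of all calls 61.5% were positive, or 48.3% with quantile normalization.

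Arrays of the same labelled pool were then compared between sites. In retina, 5 of the 9 probe sets differed, 2 higher and 3 lower at site 2, where 35.7% of all probe sets were called. Klf3 100011_at was lower at site 2 by -1.58 ± 0.12 on the log2 scale (limma adjusted p = 2e-08), Klf9 93528_s_at by -1.49 ± 0.12 (adjusted p = 4.4e-08) and Klf7 by -1.19 ± 0.13 (adjusted p = 2e-06). Klf9 93527_at was higher by 1.10 ± 0.26 (adjusted p = 0.0023) and Klf6 by 0.41 ± 0.097 (adjusted p = 0.0024). For all 5 the arrays of the sites did not overlap, but the share of all probe sets behaving so was not counted. Klf3 100011_at, Klf7 and Klf9 93528_s_at were also called without centring, where 2.33% of all probe sets were. The median of the 9 was -0.10, which is the value of Klf2, at or under background on all arrays, beside 0.04 over all.

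In cortex, 3 of the 9 differed between sites, where 16.7% of all probe sets were called. Klf9 93527_at was higher at site 2 by 1.10 ± 0.26 (limma adjusted p = 0.0062), and Klf9 93528_s_at and Klf3 100011_at were lower, at -0.71 ± 0.12 (adjusted p = 0.00081) and -0.60 ± 0.12 (adjusted p = 0.0028). The Klf9 93527_at call was lost without replicate 1 of the site 2 cortex (0.71, adjusted p = 0.059), and the sites overlapped for it. Klf7 was at -0.36 ± 0.13 (adjusted p = 0.067), and without replicate 2 of the site 2 cortex it was called at -0.54 (adjusted p = 0.0028). It was also called with a pseudocount of 50 (0.033), with quantile normalization (0.02) and among the brighter probe sets only (0.048). Without centring 0.636% of all probe sets and none of the 9 were called in cortex. The median of the 9 was -0.09, which is the value of Klf4 161185_i_at, at or under background on all arrays, beside 0.01 over all. Positive calls made up 65.0% of all calls in retina (53.2% with quantile normalization) and 61.7% in cortex (49.2%).

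The 2 Klf9 probe sets thus moved in opposite directions between sites in both tissues, although both put Klf9 higher in retina at each site. Their log2 differences between sites lay 2.59 apart in retina and 1.81 apart in cortex. Klf3 100010_at, which was at or under background on several arrays of each site, was not called between sites, at 0.09 ± 0.31 in retina and 0.21 ± 0.31 in cortex.

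**Figure D3:**
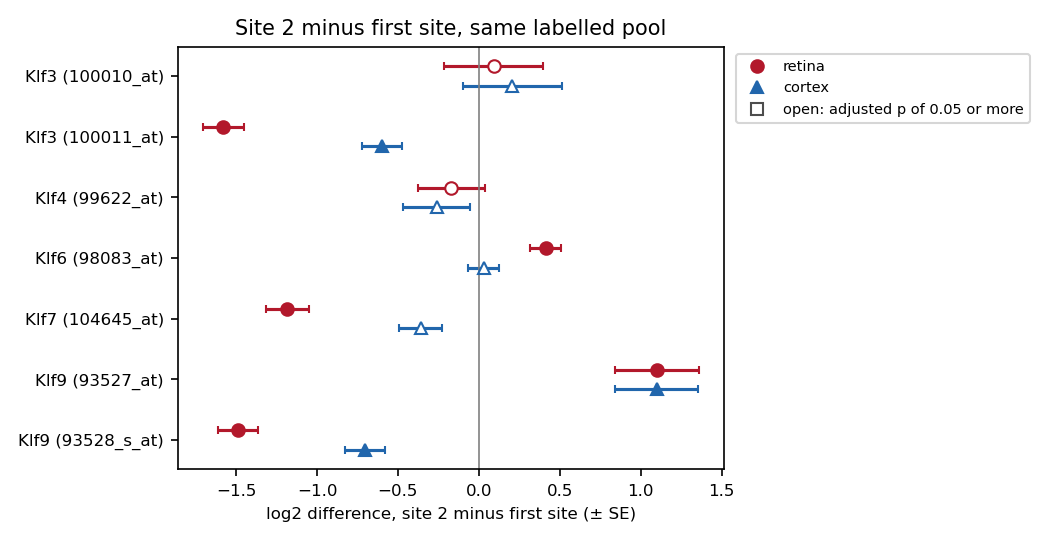
Log2 difference, site 2 minus first site, with its standard error for the same 7 probe sets, retina as circles and cortex as triangles. Filled symbols passed an adjusted p under 0.05. The Klf9 probe sets lie on opposite sides of 0, at 1.10 and -1.49 in retina and 1.10 and -0.71 in cortex.

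Ranked over the 4 groups, Klf7 and Klf4 99622_at had first-site cortex highest, then site 2 cortex, first-site retina and site 2 retina. The cortex groups overlapped each other for both, and the retina groups overlapped for Klf4 but not for Klf7. Klf6 ran from site 2 cortex through first-site cortex and site 2 retina to first-site retina, with overlap only between the cortex groups. For Klf9 93527_at the order was site 2 retina, first-site retina, site 2 cortex and first-site cortex, with overlap only between the cortex groups. Klf9 93528_s_at had first-site retina highest, followed by site 2 retina and first-site cortex, which overlapped, and then site 2 cortex. For Klf3 100011_at first-site cortex was highest, first-site retina and site 2 cortex overlapped, and site 2 retina was lowest. All neighbouring groups of Klf3 100010_at overlapped.

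Other members of the wider family, the Kruppel-like and Sp factors, were read from 9 of 20 listed genes. At the first site 3 were higher in retina, 4 lower and 2 not called, with a median of -0.14. At site 2 none was higher, 6 were lower and 3 not called, with a median of -0.90. Beside these counts, 47.1% of all probe sets were called at the first site and 32.5% at site 2. Klf5, a factor of proliferating epithelia, was at or under background on 4 of 5 and 2 of 3 retina arrays and above it on every cortex array. Its fitted difference, -3.27 (limma adjusted p = 1.1e-10) and -3.37 at site 2 (adjusted p = 4.2e-06), is therefore set against a retina level that few arrays measured. Sp4, a neuron-enriched factor, was highest at the first site at 1.35 ± 0.083 (adjusted p = 7.3e-10), against 0.24 ± 0.22 at site 2 (adjusted p = 0.50). Klf1, the erythroid member, was at -0.80 (adjusted p = 0.016) and -1.19 (adjusted p = 0.00097), with 3 of 5 first-site retina arrays at or under background. Sp1 was called in opposite directions, at 0.34 (adjusted p = 0.040) and -1.62 (adjusted p = 0.00013), with an interaction of -1.96 (adjusted p = 3.2e-05). Klf13 was lower at both sites, by -0.39 and -1.68, with an interaction of -1.29 (adjusted p = 0.00011).

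**Figure D4:**
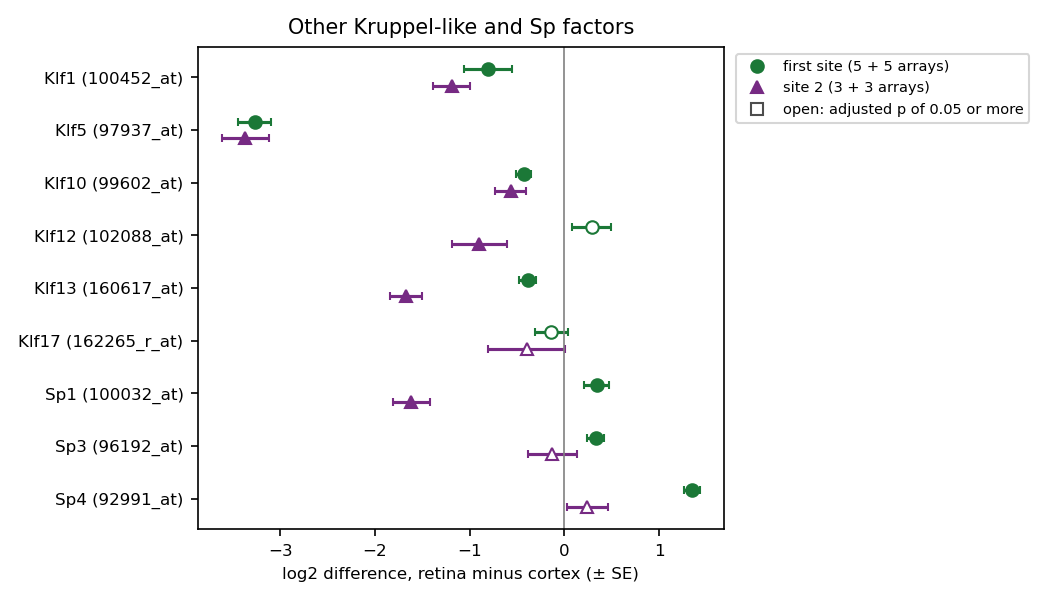
Log2 difference, retina minus cortex, with its standard error for the 9 other Kruppel-like and Sp factors, first site as circles and site 2 as triangles, filled where the adjusted p was under 0.05. Klf5 is the farthest left at both sites, and Sp1 lies at 0.34 at the first site and -1.62 at site 2.

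Cofactors of the family were measured for 11 of 14 genes. Of these, 4 were higher in retina, 6 lower and 1 not called at the first site, and 4, 2 and 5 at site 2. The shares called over all probe sets were 47.1% at the first site and 32.5% at site 2. The acetyltransferase gene Kat2b was higher, at 3.02 (limma adjusted p = 1.6e-14) and 2.77 (adjusted p = 3.3e-06). Ctbp2, a corepressor of Klf3 that also has a ribbon-synapse isoform in photoreceptors, was at 1.99 (adjusted p = 1.6e-11) and 1.46 (adjusted p = 0.0035). Sin3b, a scaffold of a histone deacetylase complex to which Klf9-type factors bind, was lower at -1.67 (adjusted p = 5.9e-11) and -1.20 (adjusted p = 0.00085). Its relative Sin3a was higher, at 0.68 (adjusted p = 1.9e-06) and 0.78 (adjusted p = 0.0098). Ctbp1 was lower at the first site, at -0.35 (adjusted p = 0.00047), and not called at site 2, at -0.25 (adjusted p = 0.22).

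Of 20 measured genes upstream of the factors, 4 were higher, 7 lower and 9 not called at the first site, and 3, 3 and 14 at site 2. Over all probe sets, 47.1% were called at the first site and 32.5% at site 2. Mapk7, the ERK5 kinase that drives Klf2 in endothelium, was lower, at -2.93 at the first site (limma adjusted p = 5.5e-11) and -3.52 at site 2 (adjusted p = 2.8e-07). Mef2c, a transcription factor downstream of it, was lower at -2.55 (adjusted p = 2e-13) and -3.56 (adjusted p = 8.9e-08). Its relative Mef2d was higher at the first site, at 0.97 (adjusted p = 3.7e-09), and not called at site 2, at 0.32 (adjusted p = 0.18). Mef2a and Mef2b were not called at either site. Rxra, a partner of nuclear hormone receptors, was lower only by the first-site test, at -1.75 (adjusted p = 3.7e-09) against -0.14 (adjusted p = 0.64), with an interaction of 1.62 (adjusted p = 3.2e-05). Tgfb2, which moved most against this list, was higher at 1.55 (adjusted p = 3.5e-09) and 1.44 (adjusted p = 0.00011). Tgfb1 and Tgfbr2 were at or under background on all arrays. Of the receptors through which hormones induce Klf9, Nr3c1, the glucocorticoid receptor, was higher at 0.77 (adjusted p = 0.00049) and 1.38 (adjusted p = 0.0019), and Thra, a thyroid hormone receptor, was lower at -1.24 (adjusted p = 5e-09) and -0.85 (adjusted p = 0.0069). Thrb, the other thyroid hormone receptor, was not called, at 0.26 (adjusted p = 0.37) and 0.18 (adjusted p = 0.68).

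Among 15 measured genes known to respond to glucocorticoids or thyroid hormone, 9 were higher in retina, 4 lower and 2 not called at the first site. At site 2 these counts were 7, 2 and 6, and the medians were 0.33 at the first site and 0.38 at site 2. The array-wide shares of called probe sets were 47.1% at the first site and 32.5% at site 2. Sgk1, a kinase gene induced by glucocorticoids, was at 2.48 (limma adjusted p = 2.5e-13) and 1.85 (adjusted p = 6.4e-06). Nrgn, a thyroid hormone target in the brain, was lower, at -4.41 (adjusted p = 1e-12) and -3.56 (adjusted p = 1.5e-07). Dusp1, a phosphatase gene also induced by glucocorticoids, was at 1.07 (adjusted p = 7e-09) and 0.62 (adjusted p = 0.0085). Not all glucocorticoid-responsive genes of the list were higher. Zbtb16 was lower at -0.93 (adjusted p = 3.5e-05) and -1.24 (adjusted p = 0.0037). Fkbp5 was called only at the first site, at -0.41 (adjusted p = 9.2e-05) against -0.05 (adjusted p = 0.94), and Tsc22d3 was not called at either site.

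Genes reported elsewhere as targets of these factors were measured for 17 of 21. Of these, 3 were higher, 8 lower and 6 not called at the first site, and 2, 6 and 9 at site 2. Again 47.1% of all probe sets were called at the first site and 32.5% at site 2. Gap43, a growth cone protein, was at -3.42 (limma adjusted p = 1.2e-13) and -2.99 (adjusted p = 4.8e-06). L1cam, an axonal adhesion molecule, was at -2.78 (adjusted p = 1.5e-11) at the first site and -1.03 (adjusted p = 0.084) at site 2. Eng, an endothelial TGF-beta coreceptor, was at -1.51 (adjusted p = 3.7e-09) and -1.13 (adjusted p = 0.00036). Cdkn1b, a cell cycle inhibitor, was called in opposite directions, at 0.58 (adjusted p = 0.0020) and -2.08 (adjusted p = 0.0041), with an interaction of -2.66 (adjusted p = 0.00052).

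The genes most like each factor across the 16 arrays were taken by Pearson correlation of centred log2 values. The arrays fall into 4 groups of 2 pools, so these values mostly describe the group levels. Closest to Klf6 were Cdh13 (r = 0.995), 6330403K07Rik (0.993) and Plk2 (0.992), and closest to Klf7 were Smarcc1 (0.992), Rflnb (0.991) and Alcam (0.990). For Klf9 93528_s_at they were Mef2d (0.967), Map3k1 (0.965) and Zbtb7a (0.963), for Klf3 100011_at Pcm1 (0.969), Bach1 (0.967) and Bpnt2 (0.960), and for Klf4 99622_at Ncam1 (0.944), Rab31 (0.905) and Rprm (0.904). None is given for Klf2, which was at background throughout.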

How the data were processed

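The deposited table held intensities on a linear scale, 1 per probe set and array, for 12488 probe sets on 16 arrays. The unit was read from the values; how the authors summarised, background-corrected or scaled them is not given in the labels or files used here. Per the labels, the arrays were hybridised with biotinylated cRNA. The 66 control probe sets were left out, and of the 12422 tested 10833 had 1 gene symbol, 396 had several and 1193 are unnamed here. A constant of 16 was added to each intensity before taking log2, and the median of every array was subtracted. The tests came from limma 3.58.1, run in R 4.3.3 (eBayes with an intensity trend, two-sided, Benjamini-Hochberg over all probe sets, threshold 0.05). Each tissue comparison used its own site's arrays, and the site differences and the interaction used a fit of all 16. Levels are means ± SD of intensities scaled to an array median of 100.

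The members of the family and all gene and marker lists were chosen with earlier results of these data known. Genes in lists were counted by their probe set of highest mean over the arrays. Named are every probe set of the 6 genes and the 3 genes most correlated with each but Klf2. For each list, up to 3 members with the largest first-site difference and the one that moved most against the list are named. The receptor genes Nr3c1, Thra and Thrb and the family members Sp1, Klf13 and Klf10 were named after their values were seen. So were the list members Sin3a, Ctbp1, Mef2a, Mef2b, Mef2d, Zbtb16, Fkbp5 and Tsc22d3. Same-numbered arrays did not deviate together (correlations of -0.19 to 0.04 over 5 pairs at the first site and 0.01 to 0.08 over 3 pairs at site 2), so numbers were not treated as pairs. Tried as alternatives were other pseudocounts (1 and 50), leaving out the centring, quantile normalization, scaling to a median of 100 before the pseudocount, a filter to the brighter probe sets (above the median), eBayes without a trend, a replicate block, 1 fit over all arrays, averaging a gene's probe sets, and omitting each array. The procedure was tested on simulated data.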

Additional observations from a re-analysis of the deposited data

Results flagged for a closer look

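The Klf6 probe set stood apart on 1 array: retina replicate 4 of the first site read 217.7, while the other first-site retina arrays read 182 to 191. This was 1 of 14 groups of 5 arrays examined, and chance alone marks about 1 group in 20. The array was still far below the lowest first-site cortex array, at 675.

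The tissue difference was called as differing between sites for 3 of the 9 probe sets, where 3.36% of all probe sets were. Without centring none of the 9 was called, where 0.274% of all were. The interaction was -0.98 for Klf3 100011_at, whose log2 difference was -1.46 at site 2 and -0.48 at the first site. It was -0.82 for Klf7, at -3.45 and -2.62, and -0.78 for Klf9 93528_s_at, at 0.80 and 1.58. The other probe set of Klf3 had an interaction of -0.12 (limma adjusted p = 0.96), and that of Klf9 one of 0.0026 ± 0.37 (SE, adjusted p = 1).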

How the results depend on the processing

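The first-site differences kept their direction under every alternative run, with ranges of -2.75 to -2.39 for Klf7, -1.94 to -1.71 for Klf6, 1.73 to 2.47 for Klf9 93527_at and 1.52 to 1.87 for Klf9 93528_s_at. Leaving out the centring, which leaves the 4.73-fold range of array medians in the data and shifts the median interaction by -0.14, cut the number of called probe sets to 2 at site 2 (6 with centring), 0 for the interaction (3), 3 between sites in retina (5) and 0 between sites in cortex (3). Without 1 array, the number called was 7 throughout at the first site, 5 throughout between sites in retina, and ran from 5 to 8 at site 2, from 1 to 3 for the interaction and from 2 to 5 between sites in cortex, and the highest counts at site 2 and in cortex came without replicate 2 of the site 2 cortex and include Klf4 161185_i_at, which was at background on every array. The replicate number as a block left 7 called at the first site and made 7 at site 2, adding Klf3 100010_at (adjusted p = 0.04). The shares of all probe sets called without 1 array or with the block were not counted. Whether the counts above moved with those shares is therefore not known. Reversals touched differences that had not passed the test, except those from averaging a gene's probe sets. For the interaction, Klf3 100010_at was 0.14 with a pseudocount of 1, 0.13 with quantile normalization and 0.057 scaled before the pseudocount. Klf9 93527_at was -0.047 with a pseudocount of 1, -0.14 without centring and -0.15 with quantile normalization, and Klf4 99622_at was -0.048 without centring. Without 1 array these interactions ran from -0.48 to 0.23, -0.49 to 0.39 and -0.048 to 0.28, for Klf3, Klf9 and Klf4 in that order. Between sites, Klf3 100010_at in cortex was -0.053 with a pseudocount of 1 and Klf6 in cortex -0.089 with quantile normalization; without 1 array Klf3 100010_at in retina ran from -0.25 to 0.44 and Klf6 in cortex from -0.041 to 0.088. The mean of both probe sets gave -0.39 for the Klf9 interaction, -0.19 for Klf9 and -0.74 for Klf3 between sites in retina, and 0.20 for Klf9 and -0.20 for Klf3 in cortex, since it joins values of opposite direction. Among settings other than left-out arrays, 245 results for single probe sets kept direction and side of the threshold, 23 lost a call, 5 gained a call and 14 turned; among left-out arrays 311, 7, 2 and 16. The cause of each change was not tested. Signal over background limits Klf2, Klf4 and Klf3 100010_at.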

Other observations

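Several relatives of the 6 genes had more than 1 probe set. Klf13 160617_at, the probe set used above, averaged 123 ± 13 in retina and 431 ± 35 in cortex at site 2 (SD, n = 3 each), while Klf13 103369_at averaged 139 ± 28 and 143 ± 17. At the first site they averaged 195 ± 16 in retina against 261 ± 23 in cortex, and 109 ± 49 against 168 ± 28 (SD, n = 5 each). The 3 Sp4 probe sets had retina means of 534, 172 and 188 against cortex means of 202, 55.3 and 73.6 at the first site, and retina means of 65.3, 82.2 and 69.1 against cortex means of 52.1, 51.7 and 53.1 at site 2. Klf10, a gene induced early by TGF-beta, averaged 192 ± 18 in retina and 301 ± 72 in cortex at site 2 with 99602_at, and 97.5 ± 9.3 and 241 ± 72 with 99603_g_at.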
